A study of Mus musculus with 6 samples.

Results

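The genes described here are 10 heat shock genes of the mouse, taken by name from the 24569 genes of the array data: Hspa1a, Hspa1b, Hspa8, Hsph1, Hsp90aa1, Hsp90ab1, Dnajb1, Hspb1, Hspe1 and Hsf1. All 10 had a row on the arrays, and no filter on low values was applied. Hspa1a and Hspa1b were chosen because, among the genes that passed the test, they had the largest rises under the BET inhibitor JQ1, and the other 8 were chosen as known heat shock genes to set beside them. The JQ1 against control values of these 10 genes are therefore given as a description, with no test. At the edge of that choice, the log2 change under JQ1 was 1.80 for Hspa1b and 1.72 for Tc2n, the next largest called rise. Nepn, at 1.79, was not called.

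The RNA came from dorsal pancreatic buds of mouse embryos dissected at stage E11.5 and kept for 24 h in culture. There were 6 arrays in 3 groups of 2: the control group CTRL with 0.1% DMSO, the group I-BET151 with 500 nM of that compound and the group JQ1 with 100 nM of that compound. Each array held RNA from 10 pooled buds, so a value is an average over epithelium, mesenchyme, vessels and other cells of the bud. No strain, sex or litter is given, so the p-values measure how far these pools differ, which may be technical in part.

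Heat shock proteins are molecular chaperones: they bind unfolded or newly made proteins, keep them from clumping and help them to fold. Cells make some of them all the time, such as HSC70 (gene Hspa8) and HSP90-beta (Hsp90ab1), while HSP70 itself (Hspa1a and Hspa1b) is made mainly under stress. The transcription factor HSF1 sits inactive in unstressed cells, and when unfolded proteins build up it forms trimers and binds heat shock elements, repeats of the short unit GAA in alternating orientation, in the promoters of these genes. I-BET151 and JQ1 both occupy the acetyl-lysine pockets of the BET proteins, which help RNA polymerase to leave the promoter. The comparisons ask how the heat shock genes responded in the early pancreas when BET proteins were inhibited.

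The promoter sequences of Hspa1a and Hspa1b, and of Hspe1, are shown because they hold the binding unit of HSF1 and belong to members with very different values. Each is the 250 bases before the start site annotated by RefSeq on the assembly GRCm38.p6, in the direction of transcription, with capitals at every match to GAANNTTC or TTCNNGAA, the smallest heat shock elements of 2 units. Both motifs read the same on either strand. Hspa1a lies on the minus strand at chr17:34972157-34972406, Hspa1b on the minus strand at chr17:34959239-34959488 and Hspe1 on the plus strand at chr1:55087898-55088147.
Hspa1a: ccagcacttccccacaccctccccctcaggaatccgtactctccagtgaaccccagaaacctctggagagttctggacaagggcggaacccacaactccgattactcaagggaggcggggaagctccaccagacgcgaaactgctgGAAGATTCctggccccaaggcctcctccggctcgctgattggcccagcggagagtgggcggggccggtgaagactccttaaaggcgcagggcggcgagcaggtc
Hspa1b: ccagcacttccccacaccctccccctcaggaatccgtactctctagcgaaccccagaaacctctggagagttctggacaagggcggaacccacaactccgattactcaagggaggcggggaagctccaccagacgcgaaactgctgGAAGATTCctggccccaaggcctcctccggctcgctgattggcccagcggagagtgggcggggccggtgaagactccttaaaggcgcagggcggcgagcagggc
Hspe1: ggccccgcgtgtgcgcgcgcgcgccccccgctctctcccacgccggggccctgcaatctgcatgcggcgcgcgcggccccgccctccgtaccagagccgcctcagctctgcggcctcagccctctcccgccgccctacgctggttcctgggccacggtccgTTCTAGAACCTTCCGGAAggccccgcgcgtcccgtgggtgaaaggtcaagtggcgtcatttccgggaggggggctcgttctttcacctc

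The promoters of Hspa1a and Hspa1b were identical at 98.8% of these 250 bases. They differed at 3 positions, written with the base of Hspa1a first and counted from the first base shown: C44T, T47C and T249G. None lay in the heat shock element, which spanned bases 104 to 97 before the start site in both genes. In the same 250-base window, Hspe1 had 3 overlapping matches to the motifs of 2 units, which together gave 2 matches to the longer motif GAANNTTCNNGAA on its forward or reverse strand, between 89 and 72 bases before the start site. Of 32851 such windows over all genes in the table, 6.69% held GAANNTTC, 7.17% held TTCNNGAA and 0.466% held the longer motif. Windows were at hand for 6 of the 10 members. Hspb1 had 2 matches to GAANNTTC, Hsph1 had 1 to TTCNNGAA in each of its 2 overlapping windows, and Dnajb1 had none in either window. On the plus strand, window 1 of Dnajb1 ends at base 83608174 and window 2 begins at base 83608298. Window 2 thus lies past the start site of window 1, and only window 1 is upstream of both annotated start sites. A match is a run of letters and not a measured binding site. Of the 6 members with a window, 5 held at least 1 match, and their log2 changes under JQ1 ran from -0.37 for Hspb1 to 2.07 for Hspa1a.

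**Figure D1:**
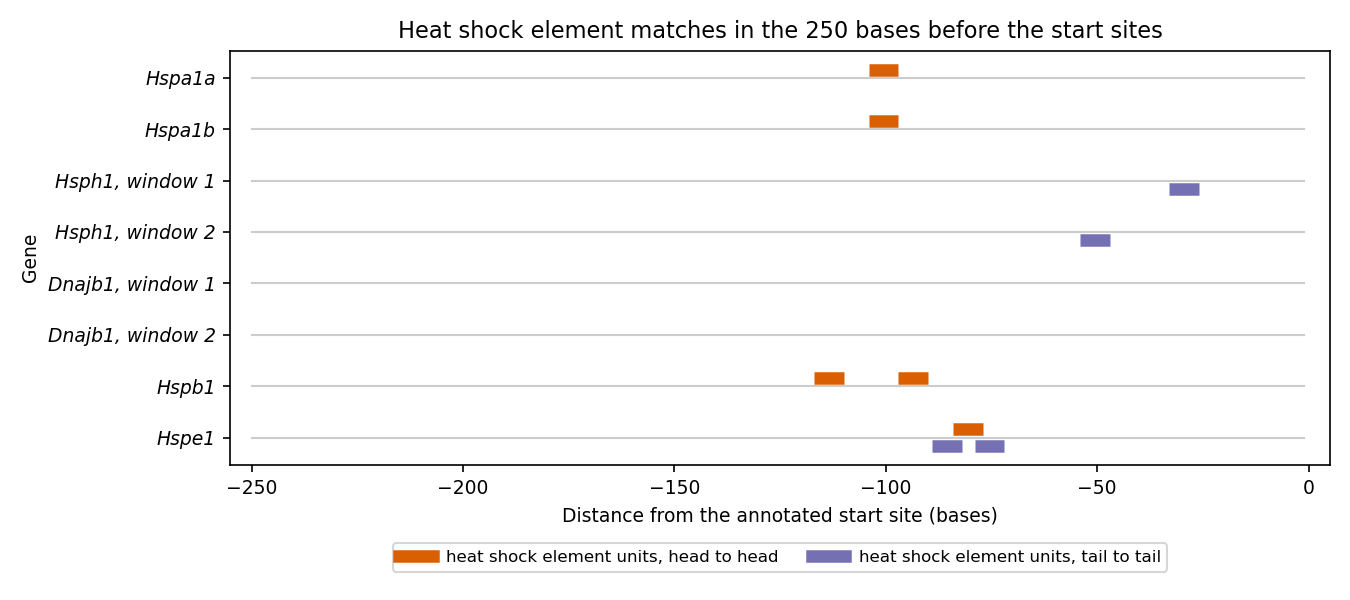
Matches to heat shock elements of 2 units in the 250 bases before the annotated start sites of the 6 members with a promoter window; the x axis is the distance from the start site in bases, and colours give the orientation of the units. Hspa1a and Hspa1b have 1 match each at the same distance, Hspe1 has 3 overlapping matches, and both Dnajb1 windows have none. Window 2 of Dnajb1 lies past the start site of window 1.

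Values are the authors' RMA intensities, not log transformed, and log2 changes are differences between group means of log2 intensity. A gene is called, and is said to have risen or fallen, at a Benjamini-Hochberg adjusted p under 0.05 from limma over all 24569 genes. At this threshold 1.16% of all genes were called under I-BET151 (66, or 0.269%, rose and 218, or 0.887%, fell; centring the arrays on their medians gave 225 and 371) and 3.95% under JQ1 (291, or 1.18%, rose and 680, or 2.77%, fell; centred, 713 and 777). Hexim1, which rises in many cell types when BET proteins are blocked, rose 1.59-fold under I-BET151 and 2.00-fold under JQ1 (limma adjusted p = 0.0422 and 0.0138). Pdx1, Ptf1a, Sox9 and Cpa1, which define the pancreatic epithelium, had intensities from 53 to 3183 on all arrays. The lowest of these values lay just below the array medians of 54 to 57.

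The inducible HSP70 genes stood apart from the other members under both inhibitors. Hspa1a, which encodes the stress-inducible HSP70, measured 79 and 87 in controls, 262 and 154 on the I-BET151 arrays and 358 and 339 on the JQ1 arrays. The groups did not overlap: every treated array lay above both controls, and both JQ1 arrays lay above both I-BET151 arrays. The place of the JQ1 arrays is a description, since the gene was chosen for its JQ1 rise. The share of all genes with this order is not given here. The group means were 83.0 ± 5.66, 208 ± 76.4 and 348.5 ± 13.4 (SD, n = 2 each). The I-BET151 arrays differed by much more than the arrays of the other groups did. Under JQ1 the mean was 4.20-fold that of the controls, a log2 change of 2.07, the largest positive change among all 24569 genes.

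Hspa1b, the neighbouring copy of the same gene, followed the same order. It measured 44 and 54 in controls, 130 and 94 on the I-BET151 arrays and 191 and 150 on the JQ1 arrays. Again no treated array overlapped with a control, and the JQ1 arrays lay above the I-BET151 arrays, where the JQ1 part is likewise a description. Its means were 49.0 ± 7.07, 112 ± 25.5 and 170.5 ± 29.0 (SD, n = 2 each), and the JQ1 mean was 3.47-fold that of the controls (log2 change 1.80, next to Hspa1a among positive changes). The transcripts of Hspa1a and Hspa1b are nearly identical, so probes of one can bind RNA of the other, and these are not independent measurements. Across the 6 arrays their log2 values correlated at r = 0.99, given as a description.

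I-BET151 gave the comparison that the choice of members did not use, though it shares the control arrays with JQ1. Hspa1a was 2.42-fold higher than in controls (log2 change 1.28 ± 0.26 SE, 95% interval 0.60 to 1.95) and Hspa1b 2.27-fold higher (1.18 ± 0.22 SE, interval 0.61 to 1.75). Among positive log2 changes of all genes these ranked 10 and 15, and neither passed the threshold (limma adjusted p = 0.107 and 0.0933). With genes below the median intensity left out of the fit, both passed (limma adjusted p = 0.0153 and 0.01165), as they did under 4 other settings named in the closing section. That filter gave 1504 calls under I-BET151, 6 of them among other chaperone genes described below. It also drops the dim rows of those 89 chaperone genes, so the counts are not shares of all genes or of the 89. The size for Hspa1a rested unevenly on the pools: it was 0.89 without I-BET151 replicate 1 and 1.66 without I-BET151 replicate 2.

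A library difference stood beside this. The liver markers Alb, Afp, Apoa1, Fgb and Serpina1b, all 5 measured and none at 0, varied among pools, with summed levels of 2428 and 2158 in controls, 720 and 1824 with I-BET151, then 731 and 2204 with JQ1. The group changes of these markers differed in direction, with 2 positive and 3 negative under each inhibitor. Their log2 changes ran from -1.52 (Fgb) to 0.25 (Alb) under I-BET151 and from -1.49 (Fgb) to 0.82 (Alb) under JQ1. In each inhibitor group the pool with the lower sum had the higher Hspa1a and Hspa1b values. The part of the liver markers in the differences of Hspa1a and Hspa1b was not tested.

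Of the 10 members, limma called 0 under I-BET151, against 1.16% of all genes. At an unadjusted p under 0.05 there were 3, Hspa1a, Hspa1b and Dnajb1, against 19% of all genes. For 4 members both I-BET151 arrays lay above both controls, where 21.5% of all genes did, and for none did both lie below, where 20.8% did. Under JQ1, the contrast used in the choice, these numbers were 4 above and 1 below, where 23.9% and 21.2% of all genes lay so. At their doses of 500 nM and 100 nM, which differ, the log2 changes of the pair stood at 1.28 and 2.07 for Hspa1a and at 1.18 and 1.80 for Hspa1b under I-BET151 and JQ1.

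**Figure D2:**
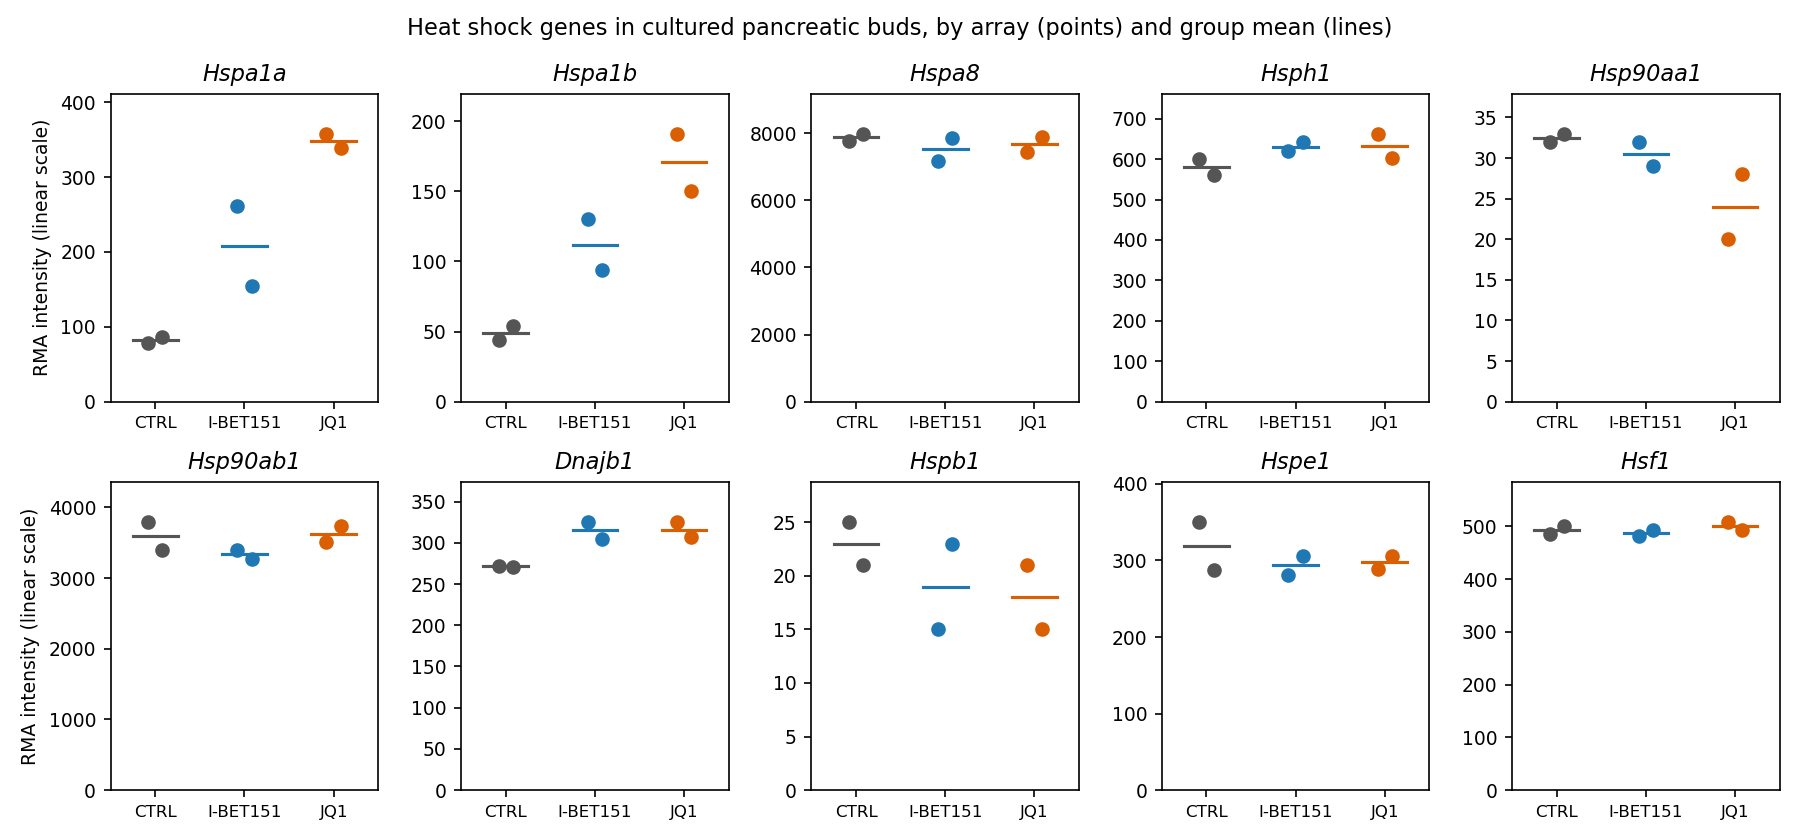
RMA intensity (linear y axis from 0, scaled for each gene) of the 10 heat shock genes on the 6 arrays; points are arrays and lines are group means. Hspa1a and Hspa1b are higher on all 4 treated arrays than on either control, while Hspa8, Hsp90ab1, Hspe1 and Hsf1 overlap with the controls under both inhibitors.

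HSF1 is controlled mainly by its activity, and its own transcript gave much the same values in the 3 groups. Hsf1 measured 486 and 501 in controls, 482 and 494 with I-BET151, then 508 and 494 with JQ1. All 3 groups overlapped. The log2 change under I-BET151 was -0.02 (95% interval -0.16 to 0.13, limma adjusted p = 0.923), and it turned to 0.05 after the arrays were centred. Under JQ1 it was 0.02.

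The constitutive HSP70 and its partners showed small differences at most. Hspa8, which encodes HSC70, the constitutive form that folds proteins in unstressed cells, measured 7772 and 7980 in controls, 7169 and 7859 with I-BET151, then 7423 and 7894 with JQ1. The groups overlapped, and the log2 change under I-BET151 was -0.07 (interval -0.26 to 0.12, limma adjusted p = 0.673), against -0.04 under JQ1. An average rise in measured Hspa8 intensity near the size seen for Hspa1a lies outside that I-BET151 interval. The row stands at the top of the genes by mean log2 intensity (percentile 100.0), and whether its signal was near a ceiling was not tested.

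Dnajb1 encodes an HSP40 co-chaperone that delivers clients to HSP70 and stimulates its ATPase. It measured 272 and 271 in controls, 325 and 305 with I-BET151, then 325 and 307 with JQ1. All 4 treated arrays lay above both controls, by a small and near-equal amount under each compound. The log2 change under I-BET151 was 0.21 ± 0.07 SE (interval 0.04 to 0.38), 1.16-fold, and did not pass (limma adjusted p = 0.192), and the change under JQ1 was 0.22. Hsph1, which encodes HSP110, a nucleotide exchange factor of HSP70, measured 601 and 560 in controls, 619 and 642 with I-BET151, then 663 and 604 with JQ1. The treated arrays lay above the controls here too, though the lowest of them, 604, was close to the highest control, 601. Its log2 change was 0.12 under I-BET151 (interval -0.08 to 0.32, limma adjusted p = 0.481) and 0.13 under JQ1.

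Neither HSP90 gene was called under I-BET151. Hsp90ab1, the constitutive HSP90-beta, measured 3791 and 3395 in controls, 3403 and 3272 with I-BET151, then 3505 and 3732 with JQ1. The groups overlapped, with log2 changes of -0.10 (interval -0.32 to 0.11, limma adjusted p = 0.561) and 0.01. Hsp90aa1, the inducible HSP90-alpha, measured 32 and 33 in controls, 32 and 29 with I-BET151, then 20 and 28 with JQ1. Both JQ1 arrays lay below the controls, with a log2 change of -0.46, and the I-BET151 change was -0.09 (interval -0.54 to 0.36, limma adjusted p = 0.820). The Hsp90aa1 row lay below the array medians of 54 to 57.

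The small heat shock protein gene Hspb1 and the mitochondrial chaperonin gene Hspe1 did not follow Hspa1a and Hspa1b either. Hspb1, which encodes a holdase that binds unfolded proteins without ATP, was also dim, at 25 and 21 in controls, 15 and 23 with I-BET151, then 21 and 15 with JQ1. Each treated group overlapped with the controls or met them, and the log2 change under I-BET151 was -0.30 with a wide interval of -1.01 to 0.41 (limma adjusted p = 0.612). Hspe1, the co-chaperonin of HSP60, measured 350 and 288 in controls, 281 and 306 with I-BET151, then 289 and 306 with JQ1. These groups overlapped as well, with log2 changes of -0.11 (interval -0.42 to 0.19, limma adjusted p = 0.656) and -0.09. Of the 6 members with a promoter window, Hspe1 is the one with the longer heat shock element shown above.

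**Figure D3:**
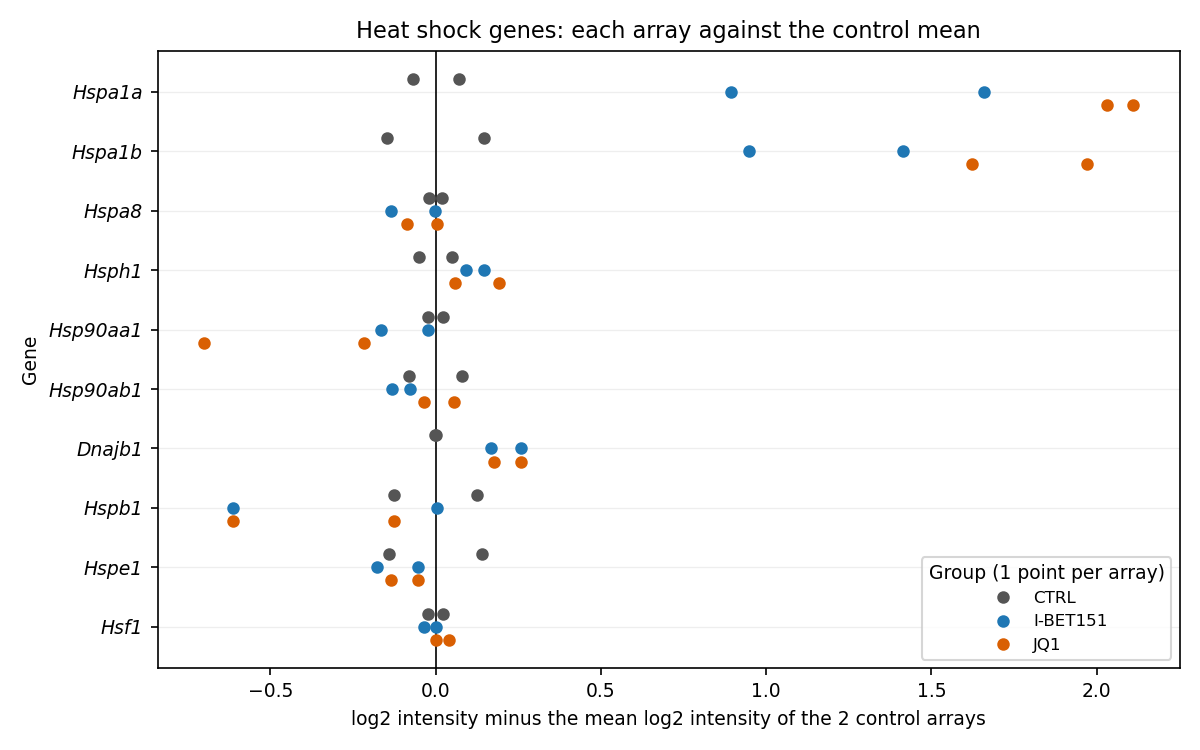
Log2 intensity of each array minus the mean of the 2 control arrays (x axis) for the 10 heat shock genes, 1 point per array, coloured by group. The treated arrays lie at 0.89 or above for Hspa1a and at 0.95 or above for Hspa1b, and no array of the other 8 members goes above 0.26.

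The difference between JQ1 and I-BET151 was tested for the 8 members other than the pair. None was called by limma, none was under an unadjusted p of 0.05 (6.72% of all genes were), and 0% of all genes were called in this comparison. The widest estimate was for Hsp90aa1, at -0.36 (JQ1 minus I-BET151, interval -0.81 to 0.09, limma adjusted p = 0.771). Hspa8 stood at 0.03 (interval -0.17 to 0.22), Dnajb1 at 0.00 (interval -0.17 to 0.18) and Hsf1 at 0.04 (interval -0.11 to 0.19). For the pair, chosen for their values under JQ1, the same differences were 0.79 ± 0.26 SE for Hspa1a and 0.61 ± 0.22 SE for Hspa1b, given as a description. The compounds were used at different doses, so these differences are not a comparison of their potency.

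Among 89 other genes of the chaperone network, grouped by role, calls were no more frequent than over all genes. Under I-BET151, 1 rose and 0 fell, and under JQ1 1 rose and 1 fell, against 1.16% and 3.95% of all genes. At these shares a list of 4 to 14 genes would often hold no call, so its absence is not a trait of the list. Median log2 changes of the network were -0.04 under each inhibitor, against 0.00 and 0.02 over all genes. These are from arrays that were not centred, with median log2 intensities of 5.86 and 5.88 in controls and 5.81 on each treated array. Centring raises every change, as for Hsf1 under I-BET151 from -0.0161 to 0.0468, so small negative changes can turn positive. Hspa2, which encodes an HSP70 best known from the testis, rose under both inhibitors, from 89 and 84 in controls to 130 and 132 with I-BET151, then 149 and 141 with JQ1. This is 1.52-fold (log2 change 0.60 ± 0.06 SE, limma adjusted p = 0.0439) and 1.68-fold (0.75 ± 0.06 SE, limma adjusted p = 0.0177). Hspa12b, a distant HSP70 relative expressed in endothelium, fell under JQ1 from 245 and 265 to 166 on both arrays (-0.62 ± 0.10 SE, limma adjusted p = 0.0470), and measured 183 and 214 with I-BET151, which was no call. All 5 endothelial markers examined (Pecam1, Kdr, Tek, Cdh5 and Emcn) had lower means too, with summed levels of 4692 and 4742 in controls, 3373 and 3642 with I-BET151, then 3140 and 3231 with JQ1. The part of this in the Hspa12b value was not tested, and in pooled tissue fewer cells of a type and less RNA per cell cannot be told apart.

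In the heat shock factor list (4 genes) none was called. Hsf2, which encodes another heat shock factor, active in development, measured 327 and 309 in controls, 449 and 395 with I-BET151, then 406 and 431 with JQ1. Its treated arrays all lay above the controls, at log2 changes of 0.41 and 0.40 (limma adjusted p = 0.1185 and 0.0873). Hsbp1, which encodes a small protein that binds HSF1 trimers, stood at -0.08 under each.

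The co-chaperone lists were also without calls. Among 8 J-domain proteins, Dnaja2 and Dnajc7 had log2 changes between -0.04 and 0.01. Among 12 HSP90 co-chaperones, Stip1, the adaptor between HSP70 and HSP90, measured 1489 and 1394 in controls and 1734 and 1730 under JQ1 (0.27, limma adjusted p = 0.106), against 0.04 under I-BET151. Fkbp4, an immunophilin of steroid receptor complexes, stood at -0.13 and -0.02. Among 8 BAG proteins and HSP70 adaptors, Bag6 and the ubiquitin ligase gene Stub1 had changes between 0.04 and 0.17. Bag3, a well-known HSF1 target named here after its values were seen, was lower on all treated arrays, at 565 and 507 in controls, 465 and 436 with I-BET151, then 395 and 430 with JQ1, and was not called (limma adjusted p = 0.236 and 0.0971).

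Small heat shock proteins other than Hspb1 (8 genes) had median changes of -0.17 under I-BET151 and -0.16 under JQ1, with none called. Hspb6, abundant in smooth muscle, measured 310 and 301 in controls, 192 and 211 with I-BET151, then 230 and 196 with JQ1. Hspb8, a partner of BAG3 in clearing misfolded proteins, measured 136 and 137 in controls, 76 and 104 with I-BET151, then 96 and 85 with JQ1. For both genes all treated arrays lay below the controls, by log2 changes of -0.60 and -0.52 for Hspb6 (limma adjusted p = 0.0822 and 0.0685) and -0.62 and -0.60 for Hspb8 (limma adjusted p = 0.160 and 0.133). The summed level of 7 mesenchyme markers, all measured and none at 0, lay between 11598 and 12118 on the treated arrays and at 13804 and 14261 in controls. The part of this in these values was not tested.

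No gene was called among the chaperonins, the chaperones of other compartments or the ubiquitin and proteasome genes. Of the 8 genes of the TRiC chaperonin, which folds actin and tubulin, 7 had negative log2 changes under each inhibitor without centring, none beyond -0.13. Cct2 and Tcp1 were between -0.11 and -0.06. Among 9 mitochondrial chaperones and proteases, Hspa9 (mitochondrial HSP70) stood at -0.19 and -0.23 and Hspd1 (HSP60) at -0.16 and -0.28. The 14 chaperones of the endoplasmic reticulum had medians of -0.04 and -0.03, with Hsp90b1 at 0.00 and -0.07 and Calr, the calreticulin gene, at -0.04 under each. Among 10 ubiquitin and proteasome genes, the autophagy receptor gene Sqstm1 measured 1439 and 1483 in controls and 1598 to 1665 on the treated arrays, not called, and Psmd11 stood at 0.00 and 0.10. Over the network, both JQ1 arrays lay below both controls for 37 of 89 genes (41.6%, against 21.2% of all genes) and both I-BET151 arrays for 28 (31.5%, against 20.8%), with the lowest log2 changes at -0.62 for Hspa12b under JQ1 and -0.72 for Hspb7 under I-BET151. Both JQ1 arrays lay above both controls for 20 of 89 genes (22.5%, against 23.9% of all genes) and both I-BET151 arrays for 17 (19.1%, against 21.5%). The arrays were not centred for these shares, and the genes compared were not matched for brightness.

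**Figure D4:**
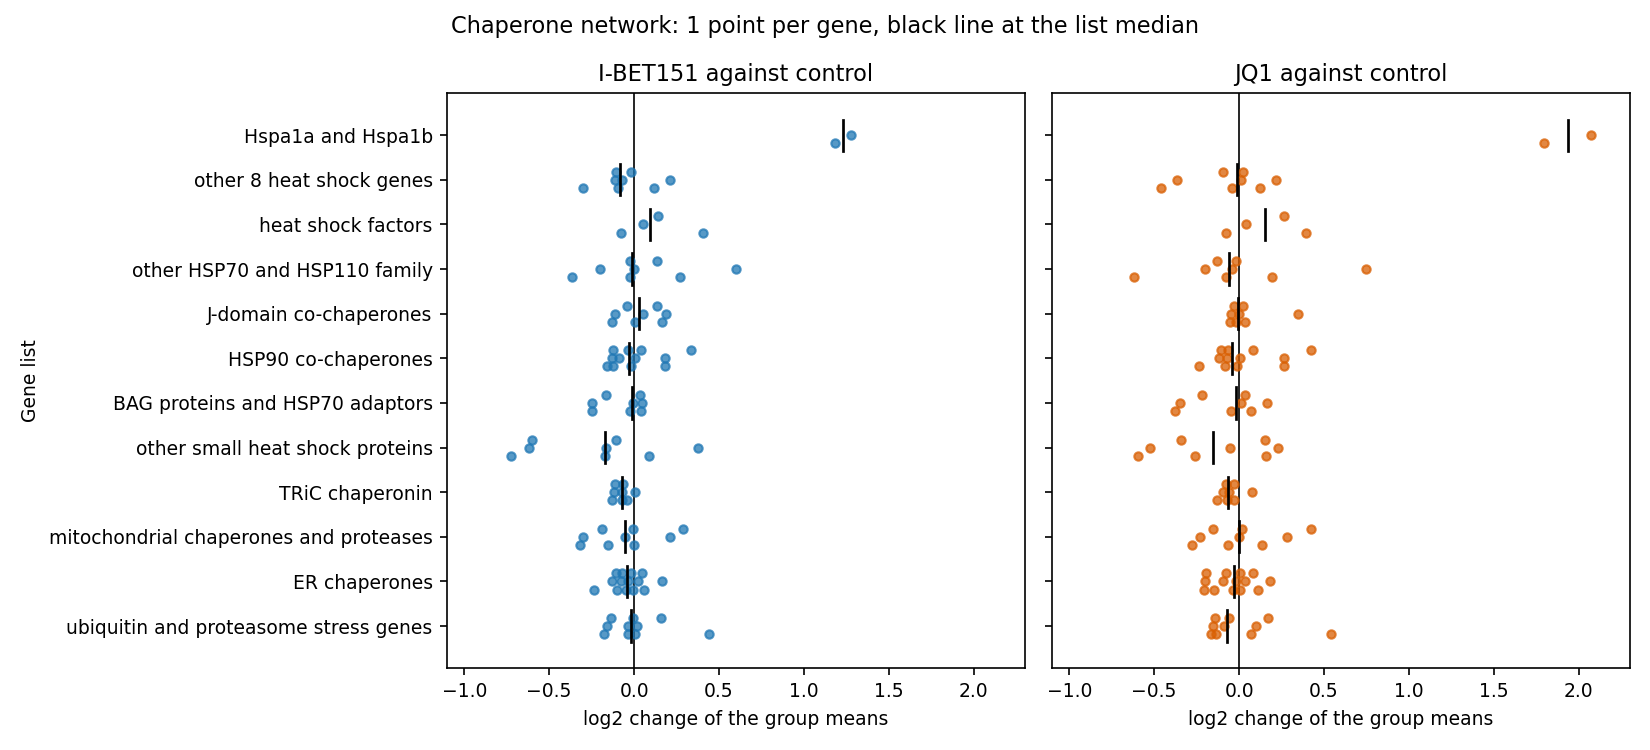
Log2 changes of group means (x axis) under I-BET151 and JQ1 for the inducible pair, the other 8 heat shock genes and the 10 lists of the chaperone network; 1 point per gene, with black lines at list medians. The pair lies at 1.18 or above under both inhibitors, and no gene of the 10 lists goes above 0.75.

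Other stress responses were measured beside the pair with 29 genes, of which JQ1 brought 4 rises and 2 falls and I-BET151 brought 1 rise and 0 falls, where 3.95% and 1.16% of all genes were called. Of the 3 metallothionein genes, whose products bind zinc and copper, Mt1 and Mt2 were called and Mt3 was not. Mt3, named after its values were seen, had a dim row at 34 and 39 in controls, 30 and 37 with I-BET151, then 37 and 28 with JQ1, with overlapping groups. Mt2 went from 502 and 508 in controls to 960 and 811 with I-BET151, then 1186 and 1219 with JQ1 (1.75-fold and 2.38-fold, limma adjusted p = 0.0468 and 0.01515). Its arrays kept the order of Hspa1a between groups. Within I-BET151, replicate 1 was the higher for both genes. Within JQ1, replicate 1 was the higher for Hspa1a (358 and 339) and the lower for Mt2. Mt1 rose under JQ1 from 772 and 762 to 1291 and 1359 (limma adjusted p = 0.0238) and measured 1060 and 926 under I-BET151, not called.

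The remaining calls went in both directions. Sesn2, a target of p53 and of ATF4, rose under JQ1 from 403 and 411 to 568 and 578, and Egr1, an immediate early factor, from 182 and 170 to 262 on both arrays (limma adjusted p = 0.0245 and 0.0300). Herpud1, which acts in degradation at the endoplasmic reticulum, fell under JQ1 from 683 and 689 to 469 and 487 (limma adjusted p = 0.0431). Slc7a11, a cystine transporter gene of the oxidative stress response, fell from 21 and 23 to 11 on both JQ1 arrays (limma adjusted p = 0.0307), in a dim row. Hmox1, which encodes heme oxygenase and was named after its values were seen, measured 576 and 744 in controls, 751 and 790 with I-BET151, then 907 and 941 with JQ1, and was not called.

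Of 1139 genes brighter than the median gene with group means spread over at least 0.5 on the log2 scale, those with the profile most like the mean of Hspa1a and Hspa1b over the 6 arrays were Slc43a2 (Pearson r = 0.997), Tbc1d24 (0.995), Zswim5 (0.993), Nuak1 (0.991) and Arid5a (0.990). Their differences from control were smaller than those of Hspa1a and Hspa1b: Slc43a2, an amino acid transporter gene, measured 210 and 225 in controls, 337 and 291 with I-BET151, then 375 and 367 with JQ1. The most opposite profiles were those of Dock8, Dagla, Nupr1, Gulp1 and Slc25a24, with r between -0.998 and -0.993. Nupr1, a stress-induced chromatin protein gene, measured 315 and 302 in controls, 106 and 151 with I-BET151, then 76 and 93 with JQ1. With 6 arrays in 3 groups these correlations mostly restate the order of the groups, and they were picked as the extremes of many genes. For the other members the same r was 0.93 for Dnajb1, 0.65 for Hsph1, 0.25 for Hsf1, -0.07 for Hsp90ab1, -0.52 for Hspa8, -0.55 for Hspe1, -0.65 for Hspb1 and -0.69 for Hsp90aa1.

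**Figure D5:**
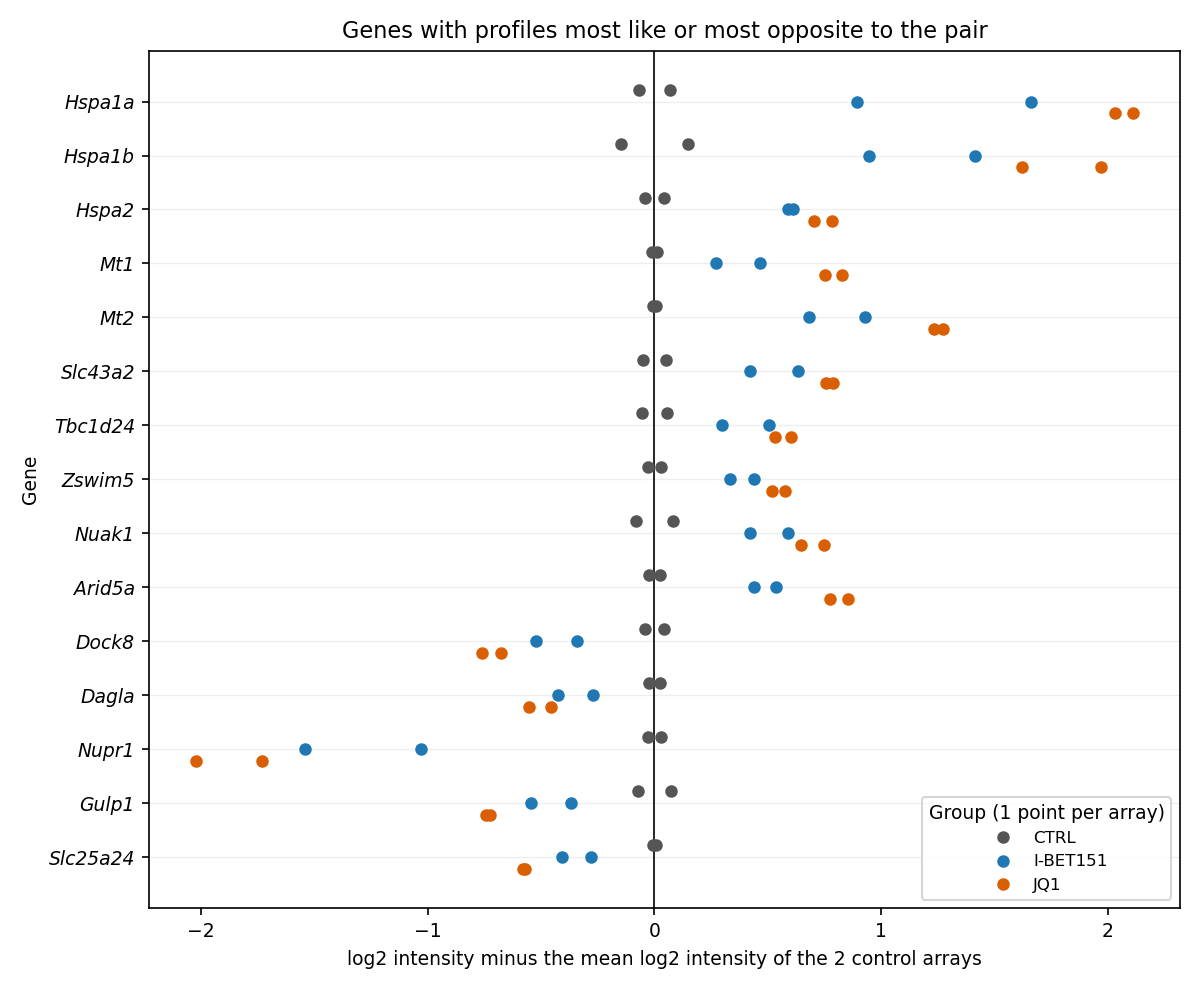
Log2 intensity of each array minus the control mean (x axis) for Hspa1a, Hspa1b, the called genes Hspa2, Mt1 and Mt2, and the 5 genes with the most like and the 5 with the most opposite profile; 1 point per array. The treated arrays of every gene lie on one side of its controls, and the pair spans the widest range among the genes that are higher.

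Calls for single genes here rest on all 6 arrays, since when any 1 of the 6 was left out, whether of CTRL (1 or 2), of I-BET151 (1 or 2) or of JQ1 (1 or 2), limma called 0 genes when all genes were kept, and 400 to 1111 genes under I-BET151 and 989 to 2284 under JQ1 with genes below the median left out.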

How the data were processed

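RNA of 6 pools of cultured buds was measured on 1 Affymetrix whole-transcript array each. The deposited intensity values were normalized by the authors with RMA, per the submitters' processing notes, and stand on a linear scale as whole numbers of at least 5; the version and settings are not given in the sources used here. Of 24972 rows, 24014 were named by the platform annotation and 559 by a RefSeq gene ID equal to the row ID (Hsp90ab1 and Hsf1 among them), which gave 24569 named genes; 399 rows stayed unnamed.

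Intensities were log2 transformed with no pseudocount and no filter and fitted with limma 3.58.1 in R 4.3.3 over all 6 arrays (group means, 3 residual degrees of freedom), with Benjamini-Hochberg adjustment over 24569 genes. The number of arrays limits the precision, and whether the pools within a group were from different litters is not stated in the labels. Fold changes are of mean log2 values, and normalization across arrays leaves only changes relative to the other genes.

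The members and all gene lists were chosen with earlier results of these data known. Named in the text are all members, each list's called genes (at most 6), or where none was called its 2 brightest genes, and the 5 genes most like and most opposite to Hspa1a and Hspa1b by Pearson r; other names are marked as chosen after their values were seen. Alternatives were filters on dim genes, array centring, a pseudocount of 16, a replicate block, a trended and robust prior, fits of 2 groups, leaving out each array and, added after seeing the data, only genes of the platform annotation.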

Additional observations from a re-analysis of the deposited data

How the results depend on the processing

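With 2 arrays a group the count of calls moved strongly with the settings. The log2 changes of Hspa1a and Hspa1b were positive in all of those run, which was fixed in advance for most. Every treated array lay above both controls, so leaving out an array cannot turn the sign. The filters, block, prior and fits of 2 groups leave the log2 change as it is. Hspa1a and Hspa1b, 2 of the 10 members, were called under I-BET151 with genes below the 25th percentile of intensity left out (limma adjusted p = 0.0379 and 0.0296), with genes below the median left out (0.0153 and 0.01165), with arrays centred (0.0447 and 0.0353), with the replicate block and that median filter (0.0180 and 0.0163) and with the trended, robust prior (0.0231 and 0.0040). They were not called with the replicate block alone (limma adjusted p = 0.186 and 0.177), in a fit of the 2 groups (0.216 and 0.187), with a pseudocount of 16 (0.0856 and 0.0749) or with only genes of the platform annotation (0.108 and 0.0943). Calls in the order 25th percentile filter, median filter, centring, pseudocount 16, block, block with median filter, trended prior and 2 groups were 828, 1504, 596, 687, 0, 1156, 1871 and 0 over all genes under I-BET151 (284 as reported), and 1802, 2448, 1490, 1686, 0, 2089, 2700 and 0 under JQ1 (971 as reported). Between the inhibitors the trended prior gave 6 calls. The filters leave dim genes out of the fit, network genes among them, so counts with a filter come from fewer genes. For the chaperone network under I-BET151 (1 as reported) they were 3 and 6 with the filters, 0 with the block, 3 with block and filter, 8 with the trended prior and 0 with 2 groups. Under JQ1 (2 as reported) they were 4, 12, 4, 5, 0, 9, 13 and 0. With the median filter the network calls under I-BET151 were Clpp, Fkbp5, Hsf2, Hspa2, Hspb6 and Hspb8 (3 rose, 3 fell). Under JQ1 they were Bag3, Clpb, Fkbp5, Grpel2, Hsf2, Hspa12b, Hspa2, Hspb6, Hspb8, Hspbp1, Hspd1 and Stip1 (6 rose, 6 fell). For other stress genes the calls were 3, 6, 2, 4, 0, 3, 8 and 0 under I-BET151 (1 as reported), and 0 with the block and with 2 groups under JQ1 (6 as reported). Whether same-numbered arrays share a litter or day is not stated in the labels. Their deviations from the group means correlated at -0.021, -0.102 and 0.041, which cannot show that they were handled apart. The liver sums were lower in replicate 1 of both inhibitor groups (720 and 731) and higher in replicate 1 of the controls (2428). Leaving out each array gave 0 to 2 called members under I-BET151 and 0 between inhibitors, 0 to 5 network genes under I-BET151 and 0 to 9 under JQ1, 0 to 4 and 0 to 6 other stress genes, and 0 to 1111 and 0 to 2284 over all genes, where for network, other stress and all genes the 0 came only with all genes kept; with the median filter all genes called under I-BET151 were 439 and 432 without CTRL replicates 1 and 2 and 782 without I-BET151 replicate 2. With the median filter and CTRL replicate 1 left out, 0 members were called, without CTRL replicate 2 Hspa1b, without I-BET151 replicate 1 Hspa1a, and otherwise both. With a pseudocount of 16 the log2 changes under JQ1 were 1.88 for Hspa1a and 1.52 for Hspa1b; leaving out an array gave 2.00 to 2.14 and 1.62 to 1.97, and under I-BET151 0.89 to 1.66 and 0.95 to 1.42. Signs of members' I-BET151 changes turned only near 0, with leave-one-out ranges of -0.61 to 0.0055 for Hspb1 (turned without I-BET151 replicate 1), -0.26 to 0.026 for Hspe1 (without CTRL replicate 1) and -0.038 to 0.0058 for Hsf1 (without CTRL replicate 2, and 0.0016 without I-BET151 replicate 1); centring gave 0.0468 for Hsf1. The causes of these shifts were not tested, apart from the fewer genes, arrays or residual degrees of freedom that the settings leave.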

Other observations

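Hspa1a and Hspa1b lie next to each other on chromosome 17 with no annotated gene between them, and the 4 nearest genes on each side with their order taken from RefSeq were examined. None of these 8 genes was called under either inhibitor by limma. Hspa1l, the testis HSP70 gene beside the pair, measured 20 and 20 in controls, 19 and 16 with I-BET151, then 16 and 19 with JQ1, in a dim row. Neu1, a lysosomal sialidase gene on the other side, measured 219 and 203 in controls, 220 and 219 with I-BET151, then 233 and 250 with JQ1, and Vars, the valyl-tRNA synthetase gene, measured 401 and 407, 380 and 358, and 356 and 362. Over the 8 neighbours the log2 changes ran from -0.23 to 0.12 under I-BET151 and from -0.29 to 0.43 under JQ1.

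Among genes outside the naming rule, chosen after their values were seen, Fkbp5, an HSP90 co-chaperone gene induced by glucocorticoids, measured 408 and 372 in controls, 481 and 503 with I-BET151, then 511 and 536 with JQ1 (limma adjusted p = 0.122 and 0.0555). Hspb7, a small heat shock protein gene of muscle, measured 48 and 43, 27 and 28, and 32 and 40 (limma adjusted p = 0.0873 and 0.221). Neither was called. The summed level of 5 neural and neural crest markers, lowest single value 19, was 1398 on both control arrays and 555 to 738 on the treated arrays; its part in any heat shock value was not tested.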
